A study of Mus musculus with 16 samples.

Results

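The genes described here are named for the protein subunits of the mitochondrial ribosome and for the translocases that bring proteins into mitochondria. They were taken as every symbol of the array's annotation that starts with Mrpl, Mrps, Timm or Tomm. This gave 78 genes of the 9026 named genes, on 103 probes. Of the 78, 61 were called ribosome genes (Mrpl and Mrps) and 17 import genes (Timm and Tomm). The prefix alone placed a gene in its class, and the role of each product was not checked. Among the import genes, Timmdc1 and Tomm34 were not assigned to any translocase. The values came from 4 male HdhQ111/+ heterozygote mice of strain C57BL/6J at 18 weeks of age, which carry an expanded CAG repeat knocked into 1 allele of the mouse huntingtin gene. Liver RNA and brain RNA of each animal were hybridised on 2-colour cDNA arrays beside a common RNA of that tissue, pooled from 4 wildtype C57BL/6J males, also at 18 weeks. A dye-swapped pair of arrays per animal made 8 arrays for liver and 8 for brain, 16 in all. The series asks how liver and brain transcripts of these mutant mice differ from those of wildtype mice. Both tissues were used whole, and in such bulk RNA fewer cells of a type and less RNA per cell cannot be told apart.

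The mitochondrial ribosome translates the few messages of the mitochondrial genome, which encode subunits of the respiratory chain. All of its proteins are encoded in the nucleus, made in the cytosol and imported. Most imported proteins enter through the TOM complex of the outer membrane, and the TIM23 and TIM22 complexes then place them in the matrix or the inner membrane, with small Tim chaperones guarding the passage between the membranes. Mutant huntingtin has been reported to bind the TIM23 complex in neurons, and liver and brain are both rich in mitochondria.

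The promoters of 4 of these genes are shown because Mrps16 and Mrpl36 were among the 5 ribosome genes with the smallest p in liver, Mrps7 was the member with the smallest p in brain, and Timm10 lay on opposite sides of 0 in liver and brain. Each is the 250 bases before the start of the gene, 5' to 3' on the gene's strand, from RefSeq on build GRCm38.p6. Mrps16 is at chr14:20393635-20393884 on the minus strand, Mrpl36 at chr13:73330759-73331008, Mrps7 at chr11:115603890-115604139 and Timm10 at chr2:84826771-84827020, these last on the plus strand. Capitals mark matches, on either strand, to the ETS motif CCGGAAG, the YY1 motif AAGATGG or the NRF1 motif GCGCATG, which factors of mitochondrial gene expression are known to bind.
Mrps16: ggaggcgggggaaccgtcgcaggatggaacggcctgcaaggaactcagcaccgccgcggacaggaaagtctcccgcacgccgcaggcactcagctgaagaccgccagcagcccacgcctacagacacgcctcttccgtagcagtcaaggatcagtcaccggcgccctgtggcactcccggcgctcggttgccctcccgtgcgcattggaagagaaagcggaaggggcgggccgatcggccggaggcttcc
Mrpl36: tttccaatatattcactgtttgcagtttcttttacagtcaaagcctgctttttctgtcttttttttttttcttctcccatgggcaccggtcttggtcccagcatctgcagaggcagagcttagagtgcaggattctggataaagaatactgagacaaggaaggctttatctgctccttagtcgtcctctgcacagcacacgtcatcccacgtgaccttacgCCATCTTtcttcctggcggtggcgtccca
Mrps7: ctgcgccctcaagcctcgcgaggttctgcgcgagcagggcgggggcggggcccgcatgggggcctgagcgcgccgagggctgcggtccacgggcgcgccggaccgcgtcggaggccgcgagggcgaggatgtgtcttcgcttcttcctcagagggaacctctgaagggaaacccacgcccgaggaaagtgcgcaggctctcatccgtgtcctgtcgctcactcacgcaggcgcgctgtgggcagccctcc
Timm10: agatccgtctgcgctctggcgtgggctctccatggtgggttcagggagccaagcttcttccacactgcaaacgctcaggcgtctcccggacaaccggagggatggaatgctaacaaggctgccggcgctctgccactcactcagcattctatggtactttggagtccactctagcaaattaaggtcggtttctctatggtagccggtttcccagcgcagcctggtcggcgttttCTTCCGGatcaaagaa
The Mrpl36 window holds the YY1 letters and the Timm10 window the ETS letters, each on the other strand, while those of Mrps7 and of this Mrps16 start hold none of the 3. The table has another Mrps16 start nearer the coding part, whose window holds the ETS letters. RefSeq promoters were matched to 54 of the ribosome genes and 16 of the import genes. The ETS letters stood in 25.9% of these ribosome genes and 37.5% of these import genes, against 14.2% of the 7295 genes with a name on the array and a promoter in the table and 7.83% of all 27025 genes in the table. The NRF1 letters stood in 9.26% of the ribosome genes and 6.25% of the import genes, against 5.95% of the named genes on the array and 3.68% of all genes. The YY1 letters stood in 9.26% of the ribosome genes and 6.25% of the import genes, against 5.21% of the named genes on the array and 5.18% of all genes. The ETS letters end in the AAG with which the YY1 letters begin, so these 2 can overlap. A match is a description of the sequence alone.

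Every value below is a log2 ratio, likely HdhQ111/+ over wildtype, averaged over the dye-swapped arrays of a mouse and over the probes of a gene. The files hold ratios and no levels, so members were not compared in abundance. No source states the direction or the log base, and base 2 was assumed. A gene was tested where at least 3 mice had a value, which kept 75 members in each tissue, 58 of them ribosome genes and all 17 import genes. Mrpl12, Mrps12 and Mrps27 were not tested. The wildtype pool counts as 1 control sample, so a test against 0 holds no spread between wildtype animals, and whatever is peculiar to a pool enters the values of all 4 mice of that tissue. Hepatocyte, neuron and oligodendrocyte markers scattered less over arrays of the tissue known to express them, while pituitary markers did not. The median SD over 8 arrays was 0.34 in liver and 0.93 in brain for 5 hepatocyte markers, 0.69 in liver and 0.35 in brain for 7 neuron markers, and 0.82 in liver and 0.36 in brain for 6 oligodendrocyte markers. For 6 pituitary markers it was 0.48 in liver and 0.65 in brain. Members scattered alike in the 2 tissues, by 0.40 in liver and 0.40 in brain.

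The symbols were moved by 11 rows against the values, a shift that was inferred after the data were seen and that no source states. The scatter of the member rows was measured at each shift on these same values, so it is not an independent check. At 11 rows, the median SD of the 103 member probes over the 16 arrays was 0.46. With the names as given it was 0.55, and over the other offsets tried, up to 60 rows each way, it lay between 0.49 and 0.70 with a median of 0.58. Of the 121 offsets, 11 had the lowest scatter of the member rows. With the names as given, 29 of 74 members in liver and 27 of 72 in brain had a mean of the other sign.

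**Figure D1:**
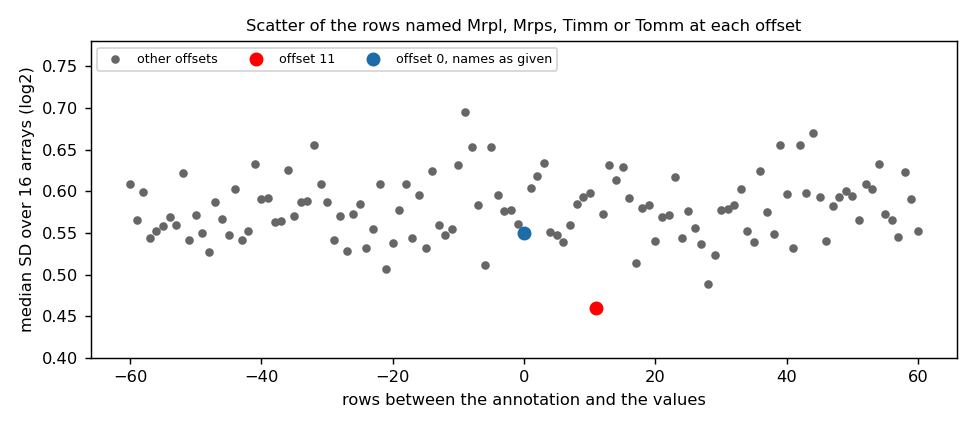
The y axis is the median SD over 16 arrays (log2) of the rows that carry a member's name, and the x axis is the number of rows between annotation and values. The red point at 11 rows lies at 0.46, below every grey point, and the blue point for the names as given lies at 0.55.

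No member passed the adjusted test in liver, in brain or in the difference between them. In liver, 42 of 58 ribosome genes had a mean below 0 and 16 a mean above 0, with a median of -0.099 over genes, and 10 of 17 import genes lay below 0 with a median of -0.013. Over all 8803 genes tested in liver, 4979 lay below 0 and the median was -0.030. In brain the ribosome genes lay the other way, 41 above 0 and 17 below with a median of 0.034, and 11 import genes lay above 0 and 6 below with a median of 0.013. Over all 8567 genes tested in brain, 4858 lay above 0 and the median was 0.023. Many of these signs rested on 1 mouse or dye, and the liver arrays of mouse 1 were the widest. Their interquartile ranges over all probes were 0.86 and 1.27, against 0.38 to 0.73 for the other liver arrays. They had 1086 and 1108 empty values, against 210 to 499. Whether this came from the animal or from the arrays was not tested. In liver, 20 of the 75 members turned without mouse 1 and 26 on the arrays with the mutant RNA in Cy5 alone. In brain, 22 turned without mouse 3 and 43 on those with it in Cy3 alone. The shares of all genes that turned are not given, so these counts cannot be read as particular to the members.

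The smallest limma adjusted p of a member was 0.5755 in liver and 0.9754 in brain. Over all genes, adjusted p under 0.05 was reached by 0% of genes in liver and 0.035% in brain, where the 3 genes were Crybb2 and the pituitary hormone genes Pomc and Prl. At an unadjusted p under 0.05, 7 ribosome genes and 1 import gene lay lower in liver and 0 higher, beside 5.24% of all genes lower and 3% higher. The 7 are 12.1% of the ribosome genes tested. In brain, 2 ribosome genes lay lower and 1 higher, and 0 import genes lay lower and 1 higher, beside 2.03% of all genes lower and 1.89% higher. All 4 livers lay below 0 for 14 of the 57 ribosome genes with 4 values and for 2 of 17 import genes, and above 0 for 0 and 1. The shares over all genes were 14.2% below and 6.52% above, and the 14 genes are 24.6% of the 57. They were Mrpl3, Mrpl10, Mrpl15, Mrpl21, Mrpl30, Mrpl34, Mrpl36, Mrpl43, Mrpl52, Mrps6, Mrps16, Mrps23, Mrps24 and Mrps35. The median SD over livers was 0.17 for ribosome genes and 0.23 for all genes. Shares at an unadjusted p or on one side of 0 depend on such scatter as well as on the means. The import genes on one side of 0 in all livers were Timm29 and Timm44 below and Timm10 above. All 4 brains lay below 0 for 1 of 56 ribosome genes and 1 import gene, and above 0 for 4 and 1, beside 3.98% of all genes below and 6.1% above. The brain counts lie near these background shares. The genes were Mrps7 and Timm10 below 0, and Mrpl4, Mrpl15, Mrpl51, Mrps11 and Timm8a1 above. The 6 pituitary markers were all below 0 in brain with a median of -2.18, and 2 of them passed the test. Their part in the brain values of the members was not tested.

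**Figure D2:**
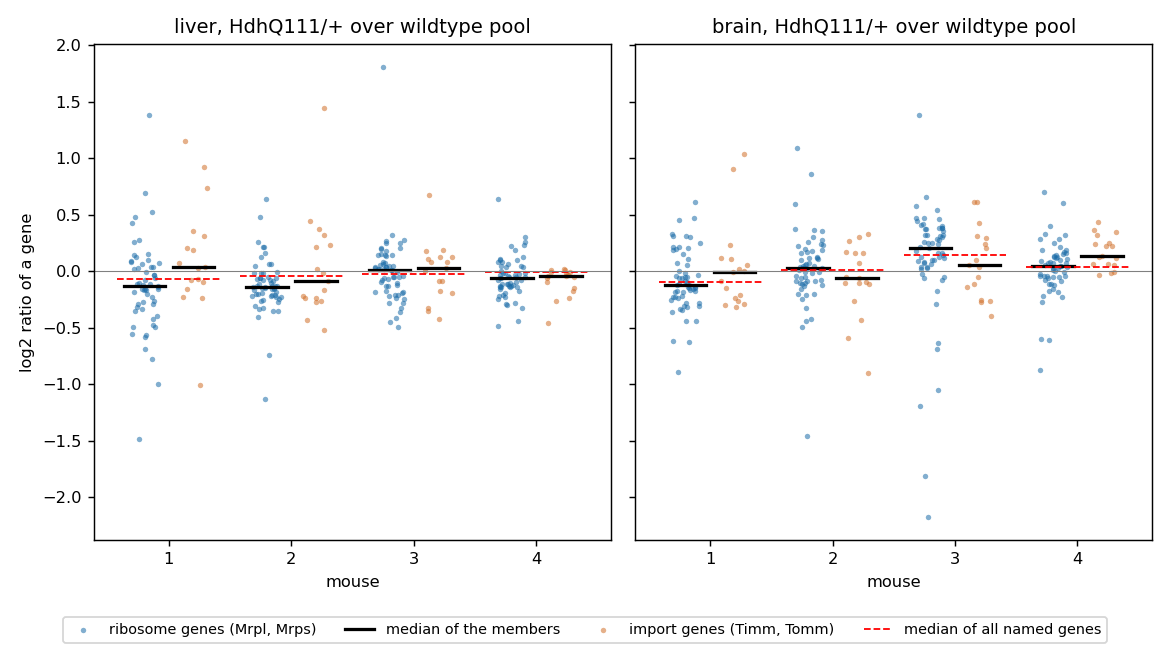
Each point is 1 gene in 1 mouse, with the log2 ratio on the y axis and the mouse on the x axis, ribosome genes in blue and import genes in orange. Black bars are the medians of the members and red dashed lines the median of all named genes, and in brain the ribosome bar and the dashed line are both lowest in mouse 1 and highest in mouse 3.

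In brain the ribosome median followed the median of all genes of the same mouse. In the livers of mice 1 to 4, the median over ribosome genes was -0.13, -0.14, 0.0065 and -0.062, beside medians of -0.073, -0.042, -0.023 and -0.0043 over all named genes. In the brains it was -0.12, 0.031, 0.21 and 0.044, beside -0.098, 0.0080, 0.15 and 0.039. Mouse 1 was lowest and mouse 3 highest in brain for both. Taken relative to all genes of the mouse, the ribosome median was -0.046 ± 0.054 in liver and 0.017 ± 0.035 in brain (SD, n = 4 mice each). That liver value corresponds to a ratio of 0.969. It was below 0 in the livers of mice 1, 2 and 4 and above 0 in mouse 3, so its spread over mice includes 0.

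Taken relative to all genes, the import genes had a mean nearer to 0 than the ribosome genes but a wider spread over mice. Their median was 0.037, -0.084, 0.029 and -0.043 in the livers of mice 1 to 4, and -0.0050, -0.062, 0.054 and 0.14 in the brains. Relative to all genes this was 0.020 ± 0.073 in liver and 0.0073 ± 0.10 in brain (SD, n = 4 mice each). The ribosome median minus the import median was -0.16, -0.059, -0.022 and -0.020 in the 4 livers and -0.11, 0.093, 0.15 and -0.094 in the 4 brains. It was below 0 in all 4 livers, by -0.066 ± 0.067, and in 2 of the 4 brains, with a mean of 0.0098 ± 0.13. The liver mean is about the size of its SD, and the brain mean is far smaller than its SD.

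Other housekeeping families of the cell's energy and protein supply were set beside them. The 60 cytosolic ribosomal protein genes, which make up the ribosome outside mitochondria, lay at -0.15 ± 0.085 relative to all genes in liver and 0.051 ± 0.067 in brain. The 68 genes of oxidative phosphorylation lay at -0.14 ± 0.11 in liver and 0.084 ± 0.10 in brain. In liver 42 of 58 mitochondrial ribosome genes had means below 0, against 54 of 59 tested cytosolic ribosomal genes and 60 of 68 oxidative phosphorylation genes. In brain 41 of 58 mitochondrial ribosome genes lay above 0, against 47 of 58 cytosolic ribosomal genes and 58 of 67 oxidative phosphorylation genes. The mean over mice of the mitochondrial ribosome had the sign of these families in each tissue, at smaller size. Its brain mean of 0.041 rested on mouse 3, and was -0.015 without that mouse, or 0.0021 relative to all genes. All 4 livers lay below 0 for 32 of 59 cytosolic ribosomal and 26 of 66 oxidative phosphorylation genes. In limma, 0 genes of either family passed the adjusted test in either tissue. At an unadjusted p under 0.05, 16 cytosolic ribosomal and 9 oxidative phosphorylation genes lay lower in liver. Over all genes, 14.2% had all 4 livers below 0 and 5.24% lay lower at that p. The differences between families were not tested.

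**Figure D3:**
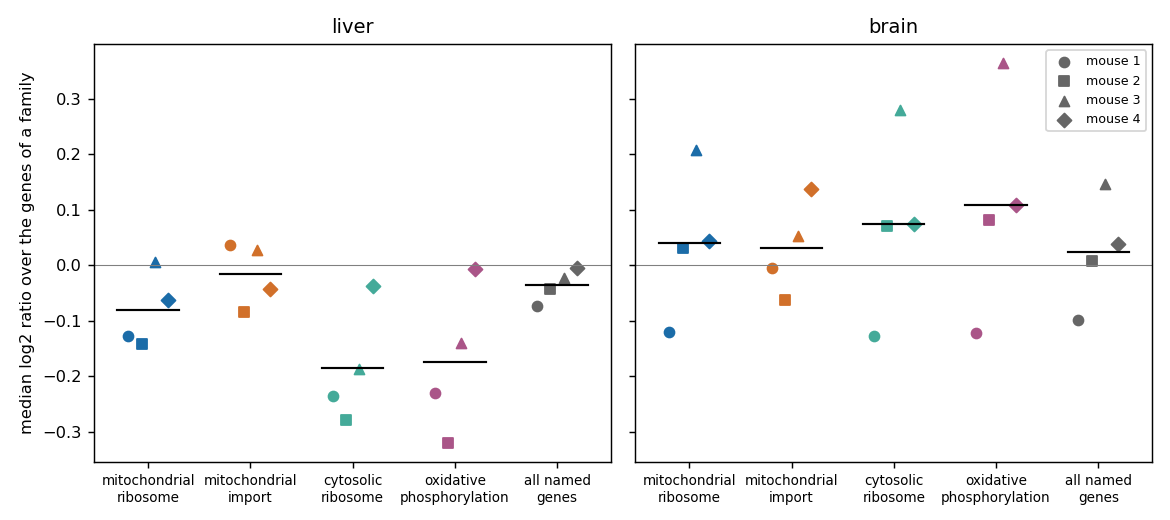
The y axis is the median log2 ratio over the genes of a family, with 1 symbol per mouse and a black bar at the mean over mice, liver on the left and brain on the right. In liver the mitochondrial ribosome lies between -0.14 and 0.0065, and the means of the cytosolic ribosome and of oxidative phosphorylation lie lower, while in brain mouse 1 lies below 0 for every family shown.

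Within the ribosome, genes were split by prefix alone, Mrpl for the large subunit and Mrps for the small one. The large subunit joins the amino acids and the small one reads the message. The place of each protein was not checked. Of the 37 tested Mrpl genes, 30 had a liver mean below 0 and 7 above, with a median of -0.10. In brain, 27 of them had a mean above 0, with a median of 0.034. Of the 21 tested Mrps genes, 12 lay below 0 in liver with a median of -0.029. In brain, 14 of them lay above 0, with a median of 0.033. Over all genes, 4979 of 8803 lay below 0 in liver and 4858 of 8567 above 0 in brain. All 4 livers were below 0 for 9 of 36 large subunit and 5 of 21 small subunit genes. At an unadjusted p under 0.05 in limma, 3 of 37 large subunit and 4 of 21 small subunit genes lay lower in liver. The mean over mice of the liver median was -0.099 ± 0.055 for the large subunit and -0.074 ± 0.064 for the small one (SD, n = 4 mice). The difference between the subunits was not tested.

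The lowest p of a ribosome gene in liver was that of Mrps16, a small subunit protein. Mrps16 was at -0.55, -0.35, -0.50 and -0.22 in the livers of mice 1 to 4, and at 0.19, -0.11, 0.038 and 0.19 in the brains. All livers lie below 0 and below every brain. The liver mean was -0.40 ± 0.15 (SD, n = 4), a ratio of 0.755, with a limma adjusted p of 0.5755. The dyes did not share this: the liver mean was -0.85 with the mutant RNA in Cy5 and 0.045 with it in Cy3.

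Mrpl15, a large subunit protein, was at -0.33, -0.27, -0.41 and -0.21 in the livers, against 0.21, 0.024, 0.37 and 0.14 in the brains. It was the 1 member of 72 with 4 values in both tissues that was below 0 in all livers and above 0 in all brains, a pattern held by 74 of 7435 genes. Its liver mean was -0.31 ± 0.086 and its brain mean 0.19 ± 0.14 (SD, n = 4 each). The brain mean had opposite signs between dyes, at 0.48 with the mutant RNA in Cy5 and -0.11 with it in Cy3, while the liver means were -0.21 and -0.40. Mrps35, a small subunit protein, was at -0.42, -0.31, -0.21 and -0.29 in the livers and -0.28, 0.20, 0.16 and 0.013 in the brains. The livers of Mrps35 lie below 0 and mouse 1 is the lowest of both tissues. Mrpl36, a small protein of the large subunit, was at -0.31, -0.22, -0.24 and -0.19 in the livers, with an SD of 0.052, and 0.33, -0.054, -0.18 and 0.00050 in the brains. Mrps24, of the small subunit, averaged -0.31 ± 0.19 in liver and 0.011 ± 0.23 in brain. The limma adjusted p of each of these in liver was 0.5755, the smallest of any gene in that tissue.

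Of the import genes, Timm29, a subunit of the TIM22 complex that inserts carrier proteins, lay lowest in liver. It was at -1.003, -0.27, -0.43 and -0.042 in the livers and 0.054, -0.26, -0.25 and 0.24 in the brains. All 4 livers are below 0 but mouse 1, whose liver arrays were the widest, carries most of the mean of -0.43 ± 0.41. The small Tim chaperones had both signs. Their 6 genes (Timm8a1, Timm8b, Timm9, Timm10, Timm10b and Timm13) had a median of 0.082 in liver and 0.077 in brain, with 4 of the 6 above 0 in each tissue.

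Timm10, which pairs with Timm9 in the chaperone of the space between the membranes, was at 0.31, 0.23, 0.080 and 0.020 in the livers, against -0.23, -0.094, -0.14 and -0.0085 in the brains. It lay above 0 in all livers and below 0 in all brains, the 1 member of 72 to do so, beside 25 of 7435 genes. Its means were 0.16 ± 0.13 in liver and -0.12 ± 0.094 in brain. Its partner Timm9 was at -0.16 ± 0.12 in liver and -0.020 ± 0.18 in brain, so the means of these partners had opposite signs in liver. Timm10b, a relative held at the TIM22 complex, was at 0.92, 1.45, 0.077 and -0.094 in the livers and 0.11, -0.43, 0.099 and 0.22 in the brains. Mice 1 and 2 alone lie high in liver. Timm8a1, whose human counterpart is mutated in a deafness and dystonia syndrome, was at 1.15, -0.23, 0.68 and -0.041 in the livers and 0.91, 0.30, 0.31 and 0.14 in the brains. All 4 brains are above 0, with a mean of 0.41 ± 0.34 and a limma adjusted p of 0.9993.

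Further import genes, among them some channel and receptor genes, had means between -0.17 and 0.18 in either tissue. Timm17a, of the TIM23 channel, was at -0.059 ± 0.20 in liver and -0.11 ± 0.55 in brain. Its relative Timm17b was at 0.099 ± 0.23 in liver and 0.14 ± 0.68 in brain. Timm44, which anchors the import motor, was at -0.11 ± 0.11 in liver, below 0 in all 4 mice, and -0.080 ± 0.22 in brain. Timm50, the receptor of the TIM23 complex, was at -0.11 ± 0.097 in liver and -0.014 ± 0.21 in brain, and Timm13, partner of Timm8a1, at 0.0041 ± 0.38 in liver and 0.15 ± 0.40 in brain. Tomm70a, an outer membrane receptor, was at -0.095 ± 0.16 in liver and 0.0080 ± 0.25 in brain. Tomm6, a small TOM subunit, was at 0.17 ± 0.20 in liver and 0.18 ± 0.37 in brain. Tomm7, another one, was at -0.17 ± 0.21 in liver and 0.18 ± 0.31 in brain. Timm8b was at -0.12 ± 0.25 in liver and 0.16 ± 0.19 in brain. Tomm20, Tomm22, Tomm40 and Timm23 were not among the 17 import symbols of the annotation used, so they have no values here. The SD over mice was larger than the mean in all of these values, other than Timm44 and Timm50 in liver, where it was slightly smaller.

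In brain, the member with the smallest p was Mrps7, a protein of the small subunit. It was at 0.43, 0.12, 0.012 and -0.14 in the livers, against -0.35, -0.44, -0.63 and -0.61 in the brains. All 4 brains lie below every liver. The brain mean was -0.51 ± 0.14 (SD, n = 4) with a limma adjusted p of 0.9754, and it came mostly from the arrays with the mutant RNA in Cy5, at -0.92, against -0.091 with it in Cy3. Mrpl23, of the large subunit, was at -1.48, -0.19, 0.048 and -0.32 in the livers and at -0.62, -0.42 and -0.87 in the brains of mice 1, 2 and 4, with no value in mouse 3. Its brains lie below 0, and mouse 1 carries most of its liver mean. Mrps11, of the small subunit, averaged 0.34 ± 0.33 in liver and 0.40 ± 0.28 in brain, above 0 in all 4 brains. Both means came from the arrays with the mutant RNA in Cy3, at 0.70 in liver and 0.785 in brain. With it in Cy5 they were -0.0255 and 0.019. Mrpl4, of the large subunit, averaged -0.014 ± 0.12 in liver and was at 0.25, 0.17, 0.26 and 0.33 in the brains, all above 0. Mrpl46, also of the large subunit, averaged -0.20 ± 0.28 in the 3 livers with a value and 0.32 ± 0.32 in brain.

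**Figure D4:**
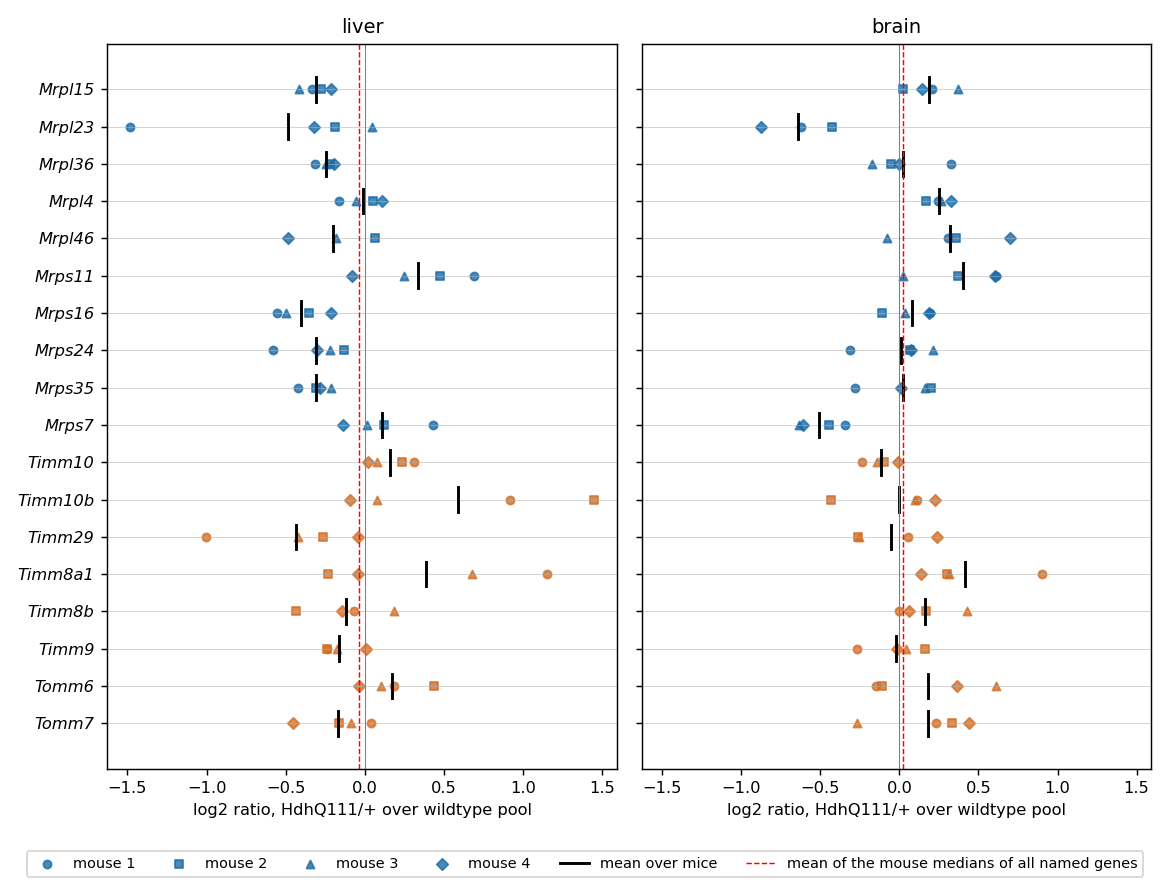
The members of each class with the smallest p in a tissue or in the difference are listed down the page. Ribosome genes are in blue above import genes in orange, with the log2 ratio on the x axis. Each symbol is 1 mouse, the black bar is the mean over mice and the red dashed line the mean of the mouse medians of all named genes. Mrpl15 and Timm10 have all livers on one side of 0 and all brains on the other.

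Liver minus brain was tested in 1 fit, in which 75 members were included. It had no mouse term, so its SE and p do not use the pairing of the tissues. Of the ribosome genes, 40 of 58 had a difference below 0 with a median of -0.15, and of the import genes 13 of 17 with a median of -0.041, beside 4869 of all 8483 genes, with a median of -0.048. The share of all genes past the adjusted test was 0.0236%, and no member was among them. At an unadjusted p under 0.05, 5 ribosome genes had a lower difference and 1 a higher one, and no import gene had either, beside 4.61% of all genes lower and 2.61% higher. Mrps7 differed by 0.61 (SE 0.16), Mrpl15 by -0.49 (SE 0.14) and Mrps16 by -0.48 (SE 0.15), each with a limma adjusted p of 0.6765. Of the import genes, Timm10 differed by 0.28 (SE 0.14, limma adjusted p 0.6794), Tomm7 by -0.35 (SE 0.19, limma adjusted p 0.6993) and Timm10b by 0.59 (SE 0.33, limma adjusted p 0.702). Within a mouse, the ribosome median in liver minus that in brain was -0.0075, -0.17, -0.20 and -0.11 for mice 1 to 4, a mean of -0.12 ± 0.086. The import genes had -0.046 ± 0.094 and all named genes -0.059 ± 0.081.

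The orientation of the dyes moved many members. The mean over the 4 mice had opposite signs with the mutant RNA in Cy5 and in Cy3 for 33 of 58 ribosome genes and 11 of 17 import genes in liver, and for 38 and 13 in brain. In liver, 22 ribosome genes lay below 0 on both orientations and 3 above 0 on both. In brain, 7 lay below on both and 13 above. The shares over all genes are not given, so these counts cannot be read as particular to the members. Mrpl3, a large subunit protein whose 4 livers averaged -0.26 ± 0.14, was at -1.21 with the mutant RNA in Cy5 and 0.68 with it in Cy3, and Mrpl13, also of the large subunit, was at -1.78 and 1.30 in liver. With the mutant RNA in Cy5 alone, the liver means of Mrps35 and Mrpl36 were 0.079 and 0.011, on the other side of 0 from the averages over both dyes. Over all probes, arrays of the same orientation correlated with r of 0.067 to 0.24 and arrays of opposite orientation with r of -0.26 to -0.050. The median over liver ribosome genes was nonetheless of like size in both, at -0.070 ± 0.082 in Cy5 and -0.086 ± 0.059 in Cy3 (SD, n = 4 mice). Relative to all genes of the array it was -0.082 in Cy5 and -0.016 in Cy3. In brain it was 0.15 ± 0.17 in Cy5 and -0.037 ± 0.12 in Cy3, beside 0.11 in Cy5 and -0.063 in Cy3 for all genes. The averages over the dye pair that are given above cancel such an effect only where it is equal in both arrays.

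**Figure D5:**
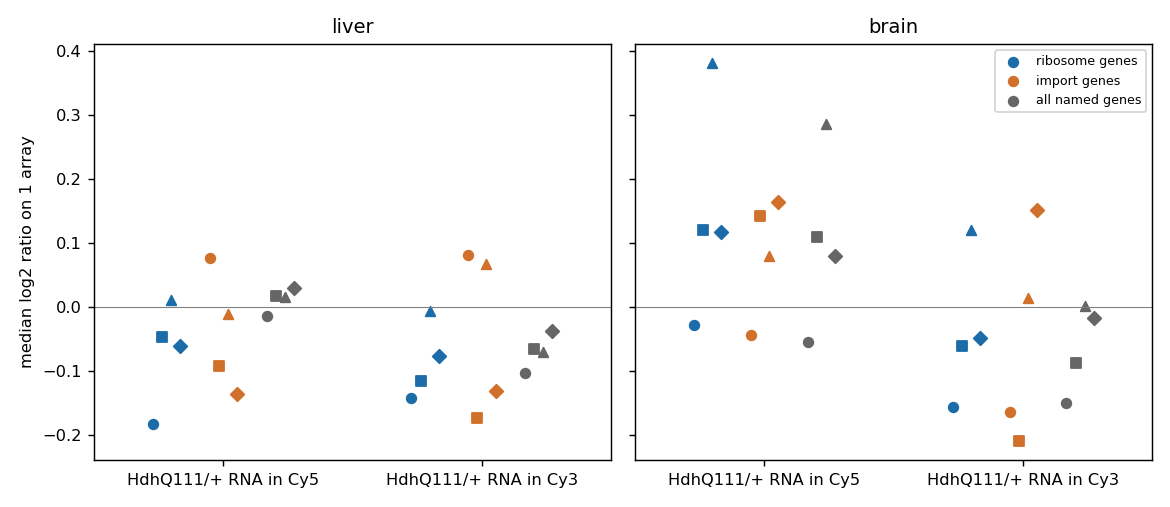
The y axis is the median log2 ratio over ribosome genes (blue), import genes (orange) or all named genes (grey) on 1 array, and the x axis separates arrays with the mutant RNA in Cy5 from those with it in Cy3. Symbols stand for mice as circle, square, triangle and diamond for mice 1 to 4. In brain all 3 groups average lower with the mutant RNA in Cy3.

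Probes of the same gene did not always share a sign. Of 22 members with several tested probes in liver, 8 had probes of 1 sign and 14 of different signs, with a median gap of 0.24 and a highest gap of 0.68. In brain, 9 of 21 had probes of 1 sign and 12 of different signs, with a median gap of 0.23 and a highest of 1.15. Among the named members, the probes of Mrpl4, Mrpl10, Tomm6, Tomm7, Timm13, Timm17a and Timm50 had different signs in liver. Of the Tomm7 probes, 1 had a value in 2 of the 4 brains, so its brain values rest on different probes in different mice. Those of Mrpl10, Mrpl34, Mrps6, Mrps23, Tomm70a, Timm17a and Timm50 had different signs in brain. Mrps16, Mrpl15, Mrps35, Mrpl36, Mrps24, Mrps7, Timm29, Timm10 and Timm10b had 1 probe each.

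Genes that work with these machines were taken from pathway lists. Of 9 measured mitochondrial translation factors, which start, extend and end the protein chains, 4 were above 0 and 5 below in liver, with a median of -0.060, and likewise 4 and 5 in brain, with a median of -0.040. Tufm, the elongation factor that brings transfer RNAs, was at -0.26 ± 0.13 in liver, and Mtfmt, which formylates the initiator transfer RNA, at -0.26 ± 0.26 in brain. Mtrf1l, a release factor, was at -0.22 ± 0.15 in liver, and Taco1, an activator of translation, at -0.14 ± 0.29 in brain. Of 8 tested enzymes that charge or finish mitochondrial transfer RNAs, 6 were above 0 in liver, with a median of 0.043. In brain, 2 of 7 were above 0, with a median of -0.0066. Gatb, a subunit of the enzyme that makes glutaminyl transfer RNA, was at -0.42 ± 0.33 in liver and Fars2, which charges phenylalanine, at 0.50 ± 0.66 in brain. Vars2, which charges valine, was at 0.19 ± 0.20 in liver and Gatc, a partner of Gatb, at -0.094 ± 0.20 in 3 brains. Of 13 assembly factors and ribosomal proteins without the prefix, 7 were above 0 in liver and 8 in brain, with medians of 0.062 and 0.074. Gadd45gip1, a ribosomal protein without the prefix, was at -0.24 ± 0.027 in liver, with the narrowest spread of those named in its list, and Ddx28, a helicase of ribosome assembly, at 0.33 ± 0.35. In brain Noa1, an assembly GTPase, was at -0.24 ± 0.24 and Chchd1, a ribosomal protein, at 0.19 ± 0.096.

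Partners of import without the prefix were also measured. Of 16 tested, 13 had a liver mean below 0 and 3 above, with a median of -0.11, and 5 had an unadjusted p under 0.05 on the lower side. Over all genes, 4979 of 8803 lay below 0 in liver, and 5.24% were lower at that p. In brain 9 of the 16 lay above 0 with a median of 0.036. Dnajc19, a co-chaperone of the import motor, was at -0.27 ± 0.084 in liver and Hspe1, the small matrix chaperonin, at -0.30 ± 0.17. In brain Spg7, a subunit of an inner membrane protease, was at -0.31 ± 0.39 and Grpel2, an exchange factor of the motor, at -0.20 ± 0.22. Of the regulators of mitochondrial gene expression, 7 of 14 were above 0 in liver with a median of -0.011, and 9 of 15 in brain with a median of 0.024. Nrf1, the factor of the NRF1 letters, was at -0.21 ± 0.15 in liver, and Tfam, which packs and transcribes mitochondrial DNA, at -0.33 ± 0.38. In brain Polg, the DNA polymerase of mitochondria, was at 0.29 ± 0.19 and Yy1, the factor of the YY1 letters, at -0.29 ± 0.47. No gene of these lists passed the adjusted test in either tissue.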

How the data were processed

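Members and gene lists were chosen with earlier results of these data known. The authors deposited normalized log2 ratios for 20794 probes on 16 arrays, and base 2, the sign (likely HdhQ111/+ over wildtype) and the centring are stated nowhere. How arrays were scanned, corrected and normalized is not given in the sources used here, and nor are filters. The annotation named 12771 probes and gave 8023 none, and with the shift of 11 rows 12760 rows had a name, for 9026 genes. Each array held 19530 to 20584 values, and 1496 values over 10 in size were set to missing, 8 of them in 4 members. No spot intensities were used, so signal over background is unknown, and precision is limited by the 4 mice per tissue.

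Both arrays of a dye-swapped pair were required and averaged to 1 value per mouse, and probes of a gene were averaged. Gene means were tested against 0 per tissue, and liver minus brain over the 8 mouse values, with limma 3.58.1 in R 4.3.3 (two-sided, Benjamini-Hochberg over all genes with at least 3 mice, threshold 0.05), after tests on simulated data. Mice were the replicates. The same 4 mice gave both tissues, per the labels, so the mouse pairs them, and the main fit of the difference left this pairing out. Spearman's rho of their liver and brain deviations was 0.049, -0.0076, 0.073 and 0.036 for mice 1 to 4, and -0.020, 0.012, -0.023 and -0.013 on average against other mice. Medians over members had no test.

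The members named were the 5 of each class with the smallest p per tissue, the 3 per class with the smallest p of the difference, the core import subunits with a row, Mrpl12 and Mrps12, and the 2 with the smallest p in each tissue of each other list. Mrpl3, Mrpl13, Mrpl10 and the members on one side of 0 in all mice were named after their values were seen, for a pattern the text counts. Alternatives changed the centring, scaling, dye orientation, pair requirement, treatment of values over 10, probes, offset, minimum number of mice, eBayes, symbols, the mouse block and which mice were kept.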

Additional observations from a re-analysis of the deposited data

How the results depend on the processing

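No member passed the adjusted limma test under any alternative. The smallest adjusted p of a member under any of them was 0.13 for liver (Mrpl13, Cy3 arrays), 0.3285 for brain (Mrpl10, Cy5 arrays) and 0.3118 for the difference (Mrpl13, Cy3 arrays). Of all genes, 3 passed in brain. There were 1 after centring, 0 after centring and scaling, 0 with Cy5 arrays, 1 where 1 of 2 arrays was enough, 0 with values over 10 kept, 1 with names as given and 0 with robust trended eBayes. Leaving out 1 mouse gave 0 to 3 in brain (0 without mouse 3, 1 without mouse 1 or 4) and 1 to 3 in the difference (1 without mouse 1, 3 or 4). Of 2 genes in the difference, 1 was left with values over 10 kept, 1 with names as given, 1 with all 4 mice required and 0 with robust trended eBayes, while the fit with the mouse as a paired block gave 2 and a limma adjusted p of 0.6848 for Mrps7, Mrpl15 and Mrps16, and changed no call of a member.

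Group values moved by more than 1 SD in 4 cases. With the names as given, the import median was 0.061 in liver and 0.066 for liver minus brain. With Cy5 arrays, the ribosome difference was -0.22, and -0.12 relative to all genes. With current symbols the values were identical.

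Many members near 0 changed sign, and the share over all genes is not given. Without 1 mouse, 3 to 20 of 75 members turned in liver, most without mouse 1, and 10 to 22 in brain, most without mouse 3. Centring turned 2 in liver and 8 in brain, centring with scaling 8 and 9, and the paired block 1 difference. The ribosome median in brain was -0.015 without mouse 3, and the import median was 0.0075 in liver without mouse 2 and -0.0044 in brain without mouse 4. Among the values of the members with the smallest p, none turned when a mouse was left out or under centring, scaling, eBayes, the block or the requirement of all 4 mice, and the following did. With Cy5 arrays, liver values were 0.079 for Mrps35, 0.011 for Mrpl36 and -0.13 for Tomm6. With Cy3 arrays, Mrps16 was 0.045 in liver, and brain values were -0.022 for Mrpl46, -0.14 for Timm8a1, -0.20 for Timm8b and -0.14 for Tomm7, with differences of 0.30 for Mrps16 and 0.24 for Tomm7. With the names as given, liver values were 0.26 for Mrpl36, 0.17 for Timm29 and -0.022 for Timm10b, brain values were 0.16 for Mrpl23, -0.0071 for Mrps11 and -0.057 for Tomm7, and differences were 0.83 for Mrpl15 and -0.12 for Timm10b. With 1 probe per gene, Tomm6 was -0.013 in liver and Tomm7 -0.11 in brain, with a difference of 0.18 for Tomm7. Where 1 of 2 arrays was enough, Tomm7 was -0.079 in brain, with a difference of 0.26. The cause was not tested.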

Other observations

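Ratios over 10 in size occurred in 4 members: 2 in Mrpl12, 3 in Mrps27, 1 in Timm17a and 2 in Tomm7. After their removal, Mrpl12, which forms the stalk of the large subunit, had a value in the liver of mouse 3 alone, at 1.81. Mrps12, a protein of the decoding site, had one in the brain of mouse 3 alone, at -1.81, and Mrps27 one in the brain of mouse 3 alone, at -2.18.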
